A study of Arabidopsis thaliana with 12 samples.

Results

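The WRKY transcription factors of Arabidopsis thaliana were followed in a leaf that had not itself been injured. The family was taken as 52 loci listed by their gene codes, out of 34262 gene identifiers in each count table, and all 52 were found. WRKY genes outside this list were not examined, and counts of members below refer to the list. Sequenced RNA came from leaf 13 of plants aged 5 weeks, in 4 groups of 3 replicates, each replicate a pool of 2 plants: isi1-2 wounded, isi1-2 unwounded, WT wounded and WT unwounded. WT is Col-0, and isi1-2 (SALK_014032) is an insertion line of the gene ISI1 in the Col-0 background, represented by this 1 line. Wounded plants had much of the blade of leaf 8 crushed with forceps, and leaf 13 was taken 1 h later. The comparisons are the response to wounding in each genotype, the difference between genotypes in each state, and the difference between the 2 responses.

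WRKY proteins are plant transcription factors named after a short peptide in their DNA-binding domain. They bind the W-box, a DNA element with the core TTGAC, and several act on the promoters of other WRKY genes. The family is divided by protein structure into group I with 2 such domains, groups IIa to IIe with 1, and group III with 1 and a different zinc finger. Family members act in responses to pathogens, salicylic acid and jasmonate, in leaf senescence, and in wounding, and many are themselves regulated at the transcript level. Of the 52 loci, 10 belong to group I, 3 to IIa, 5 to IIb, 11 to IIc, 7 to IId, 7 to IIe and 9 to III.

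Promoter sequence is shown for the 3 members of group IIa, of which 2 rose most after wounding and 1 did not pass the test, for 3 induced members with a pair of complete W-boxes, and for WRKY46, the member that differed between genotypes. Each is the 250 bases before the annotated start of the gene in the RefSeq annotation of TAIR10.1, read 5′ to 3′ on the strand of the gene. Capitals mark the W-box core (TTGAC, or GTCAA where it lies on the opposite strand) and the G-box CACGTG. The windows are chr4:15382527-15382776 (plus strand) for WRKY18, chr1:30383311-30383560 (plus) for WRKY40, chr2:10629412-10629661 (plus) for WRKY60, chr2:9924636-9924885 (plus) for WRKY15, chr4:12393983-12394232 (minus) for WRKY53, chr5:352096-352345 (minus) for WRKY62 and chr2:19044956-19045205 (minus) for WRKY46.
WRKY18: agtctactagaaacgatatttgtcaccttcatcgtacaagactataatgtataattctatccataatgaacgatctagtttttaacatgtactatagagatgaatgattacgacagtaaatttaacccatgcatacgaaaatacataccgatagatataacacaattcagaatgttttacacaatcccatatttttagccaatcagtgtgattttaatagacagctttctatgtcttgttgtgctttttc
WRKY40: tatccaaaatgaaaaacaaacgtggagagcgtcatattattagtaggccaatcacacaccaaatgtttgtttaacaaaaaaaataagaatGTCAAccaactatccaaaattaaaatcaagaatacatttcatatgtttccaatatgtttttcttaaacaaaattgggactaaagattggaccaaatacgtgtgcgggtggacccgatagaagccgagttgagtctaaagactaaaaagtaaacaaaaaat
WRKY60: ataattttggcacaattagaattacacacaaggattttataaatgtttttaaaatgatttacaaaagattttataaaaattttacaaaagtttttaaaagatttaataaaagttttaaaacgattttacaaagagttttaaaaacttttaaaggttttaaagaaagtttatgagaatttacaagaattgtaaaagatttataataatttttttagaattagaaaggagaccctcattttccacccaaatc
WRKY15: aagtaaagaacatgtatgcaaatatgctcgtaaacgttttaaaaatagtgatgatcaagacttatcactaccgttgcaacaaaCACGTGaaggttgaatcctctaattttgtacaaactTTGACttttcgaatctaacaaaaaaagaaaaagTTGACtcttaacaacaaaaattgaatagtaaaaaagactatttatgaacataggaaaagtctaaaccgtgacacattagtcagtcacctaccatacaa
WRKY53: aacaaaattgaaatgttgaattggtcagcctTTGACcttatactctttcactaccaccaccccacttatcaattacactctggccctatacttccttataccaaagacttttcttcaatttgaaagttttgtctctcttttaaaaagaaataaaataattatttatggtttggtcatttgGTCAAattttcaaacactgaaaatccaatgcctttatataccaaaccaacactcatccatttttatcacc
WRKY62: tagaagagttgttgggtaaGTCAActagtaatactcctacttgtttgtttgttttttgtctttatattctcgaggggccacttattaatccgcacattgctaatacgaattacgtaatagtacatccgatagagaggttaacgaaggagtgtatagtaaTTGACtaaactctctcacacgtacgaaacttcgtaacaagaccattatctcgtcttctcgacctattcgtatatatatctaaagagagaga
WRKY46: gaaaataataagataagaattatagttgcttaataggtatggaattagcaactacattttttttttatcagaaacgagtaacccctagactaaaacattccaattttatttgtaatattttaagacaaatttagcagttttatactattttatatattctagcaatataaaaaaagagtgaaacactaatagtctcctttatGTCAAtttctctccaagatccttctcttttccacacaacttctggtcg

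In these windows WRKY18 and WRKY60 had no W-box core on either strand. WRKY40 had 1 core, which began 160 bases before the start, and WRKY46 had 1, at 48 bases. WRKY15 had 2 complete W-boxes (TTGACC or TTGACT), at 131 and 98 bases, and a G-box at 167 bases. WRKY53 had 2 complete W-boxes, at 219 and 70 bases, and WRKY62 had 2, at 231 and 91 bases.

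The libraries held 23307790 to 30747778 counts over genes, and levels below are CPM, counts scaled to the effective library size by the TMM method. ISI1 had 1 to 4 counts in the 6 isi1-2 libraries and 253 to 337 counts in the 6 WT libraries. JAZ10, a jasmonate-responsive gene used as a sign of wounding, averaged 415 CPM in wounded and 1.15 CPM in unwounded isi1-2, and 290 CPM in wounded and 1.18 CPM in unwounded WT. The 6 leaf photosynthesis markers summed to 36400 to 42200 CPM in wounded isi1-2, 48900 to 51000 in unwounded isi1-2, 37600 to 40200 in wounded WT and 46100 to 51300 in unwounded WT. They moved by unlike amounts. LHCB2.1 averaged 1420 CPM in wounded and 3210 in unwounded isi1-2, and 1800 in wounded and 3400 in unwounded WT. RBCS1A averaged 17200 CPM in wounded and 18400 in unwounded isi1-2, and 15300 in wounded and 17800 in unwounded WT. Root markers summed to at most 0.338 CPM and flower markers to at most 2.06 CPM in any library, with 2 to 4 of the 4 genes of each list at or under 3 counts throughout a group. The 3 guard cell markers summed to 65.8 to 74.2 CPM in wounded and 68.6 to 87.6 in unwounded isi1-2, and to 68.3 to 83 in wounded and 88.6 to 89.5 in unwounded WT, and the 2 phloem markers to between 212 and 247 CPM in all groups. The part of these shifts in the results below was not tested, and in bulk leaf RNA fewer cells of a type and less RNA per cell cannot be told apart. Replicate 1 of wounded WT stood apart: the chi-square per degree of freedom between replicate count tables was 24.7 and 15.6 for its 2 pairs and 4.34 to 11.3 for the other pairs.

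Most of the 52 listed members were detected in leaf 13. With detection set at more than 3 counts in all 3 libraries of a group, 40 of 52 members were detected in isi1-2 wounded, 38 in isi1-2 unwounded, 39 in WT wounded and 35 in WT unwounded. With a floor of 10 counts the numbers were 38, 33, 36 and 33 in the same order of groups. The filter on low counts left 39 members for testing. The other 13 were WRKY31 and WRKY61 of group IIb, WRKY12, WRKY45, WRKY51 and WRKY75 of IIc, WRKY74 of IId, WRKY14, WRKY35 and WRKY65 of IIe, and WRKY30, WRKY41 and WRKY55 of III. None of the 13 exceeded 12 counts in any library, and WRKY61 and WRKY35 had 0 counts in all 12 libraries.

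Levels between genes were compared as CPM per kb of exon. WRKY70, a group III factor between salicylic acid and jasmonate signalling, was highest in unwounded leaves, with 82.3 ± 3.8 CPM per kb in isi1-2 and 72.8 ± 8.64 in WT (SD, n = 3 each). WRKY54, its close relative, was second with 56.2 ± 4.35 in isi1-2 and 41.6 ± 6.7 in WT, followed by WRKY3 and WRKY11 at 22.6 ± 1.58 and 21.1 ± 1.73 in isi1-2 and at 20.6 ± 1.16 and 20 ± 1.12 in WT. WRKY3 and WRKY11 did not differ beyond their spread in either genotype. In wounded leaves the order began with WRKY18 in both genotypes, at 160 ± 19.6 CPM per kb in isi1-2 and 198 ± 94.2 in WT. After it came WRKY70 with 61.4 ± 11.4 and WRKY54 with 59.7 ± 15.6 in wounded isi1-2, which overlapped. In wounded WT WRKY70 had 57.7 ± 6.8 and WRKY54 had 43.2 ± 7.82, which also overlapped. WRKY40, WRKY25 and WRKY15 came next by their means, at 35.6 ± 2.84, 24.3 ± 2.62 and 19.6 ± 2.62 in wounded isi1-2. They had 34 ± 18, 22.5 ± 8.45 and 20 ± 6.31 in wounded WT. WRKY25 and WRKY15 overlapped in both genotypes, and WRKY40 overlapped them in WT. WRKY55 lies next to WRKY54 on chromosome 2, 919 bases away with no gene between them, and had at most 4 counts in any library.

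**Figure D1:**
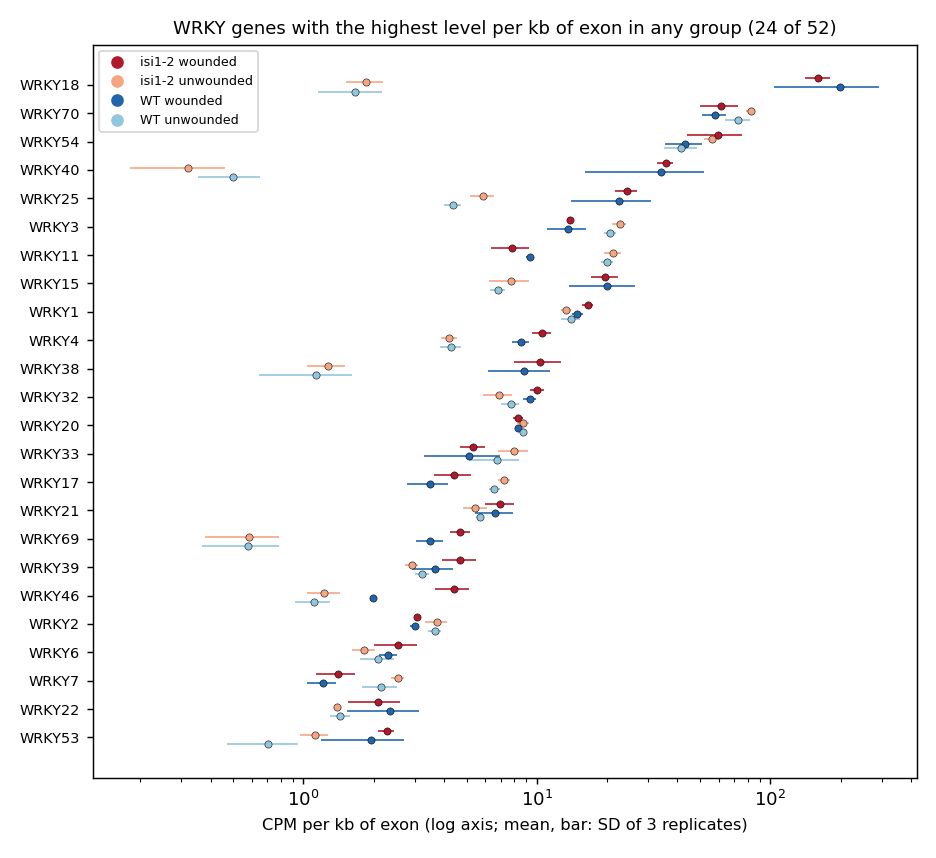
Mean level of the 24 WRKY genes with the highest value in any group, in CPM per kb of exon on a log axis, with bars for the SD of 3 replicates and 1 colour per group. WRKY18 and WRKY40 stand far to the right of their unwounded values in both genotypes, and the wounded values of WRKY11 stand to the left of its unwounded ones.

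Wounding of leaf 8 changed the levels of most tested WRKY genes in leaf 13, more often upward. In isi1-2, 28 of 39 tested members (71.8%) passed an adjusted p of 0.05 in edgeR's quasi-likelihood test, against 50.9% of the 18698 genes tested. Of these, 21 (53.8%) were higher in wounded plants, against 25.1% of all genes, and 7 (17.9%) were lower, against 25.7%. In WT 24 of 39 (61.5%) passed, against 46.9% of all genes, with 17 (43.6%) higher, against 23.9%, and 7 (17.9%) lower, against 23%. The lower calls were thus no more frequent than among all genes. At a change of at least 2-fold, 14 members (35.9%) were called in isi1-2, against 14.8% of all genes, 13 of them higher (33.3%, against 8.38%) and 1 lower (2.56%, against 6.38%). In WT 13 members (33.3%) were called at this size, against 13.4% of all genes, 11 of them higher (28.2%, against 7.81%) and 2 lower (5.13%, against 5.59%), WRKY11 and WRKY27. The median log2 fold change over the 39 members was 0.48 in isi1-2 and 0.19 in WT, and over all genes tested it was -0.00 in each. In absolute size the median was 0.66 for the members in isi1-2 and 0.71 in WT, against 0.31 and 0.28 for all genes in the same 2 comparisons. WRKY26, WRKY28, WRKY48 and WRKY62 had at most 11 counts in any unwounded library and passed the filter on low counts through the wounded ones. Their rise was thus in part a condition of being tested, and the shares of higher calls and the medians include them. The same filter was applied to all genes.

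The members called in the 2 genotypes were largely shared. Of those called higher, 16 were shared, 76.2% of the isi1-2 calls and 94.1% of the WT calls, and of those called lower, 6 were shared, 85.7% of each. Over all genes the shared calls made up 78.4% of the isi1-2 and 82.6% of the WT calls for higher genes, and 73.7% and 82.5% for lower genes. No member was called in opposite directions. The 16 higher in both were WRKY4, WRKY25, WRKY26 and WRKY32 of group I, WRKY18 and WRKY40 of IIa, WRKY8, WRKY28 and WRKY48 of IIc, WRKY15 of IId, WRKY29 and WRKY69 of IIe, and WRKY38, WRKY46, WRKY53 and WRKY62 of III. The 6 lower in both were WRKY2 and WRKY3 of group I, WRKY13 of IIc, and WRKY7, WRKY11 and WRKY17 of IId. Uncalled in both were 9 members: WRKY20, WRKY33, WRKY44, WRKY60, WRKY42, WRKY47, WRKY23, WRKY50 and WRKY54.

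**Figure D2:**
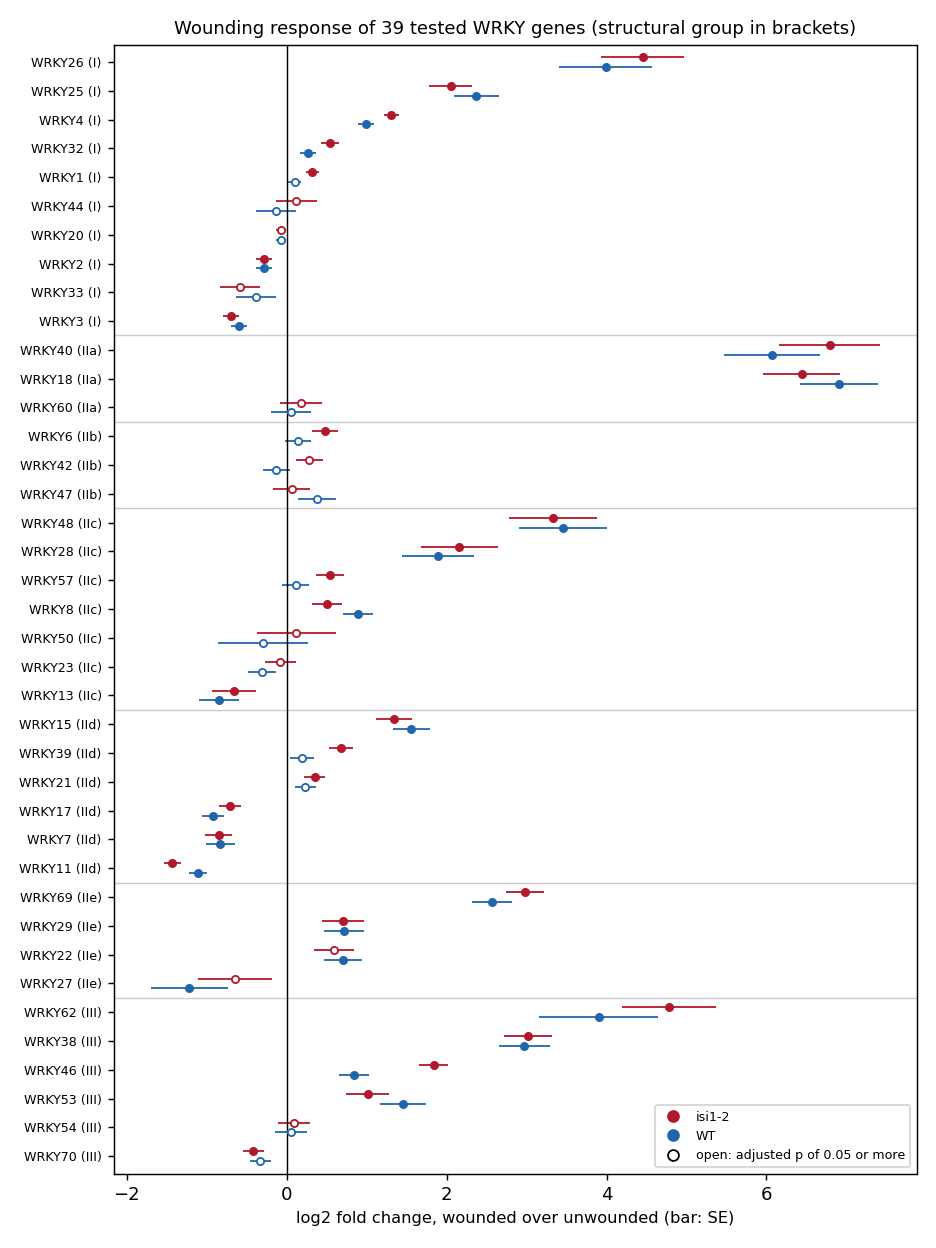
Log2 fold change of wounded over unwounded plants for the 39 tested WRKY genes, with isi1-2 above WT for each gene, bars for SE, filled points for an adjusted p under 0.05 and lines between structural groups. WRKY40 and WRKY18 lie between 6.07 and 6.91 in both genotypes, and group IId holds both WRKY15, which was higher, and WRKY11, WRKY17 and WRKY7, which were lower.

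Group IIa encodes 3 related proteins that can pair with each other through a leucine zipper and are known mainly as negative regulators of defence gene expression. WRKY18 (AT4G31800) had 280, 335 and 357 CPM in wounded isi1-2, against 3.27, 3.48 and 4.52 CPM in unwounded isi1-2. It had 184, 537 and 484 CPM in wounded WT, against 4.27, 2.26 and 3.56 CPM in unwounded WT. Every wounded library lay far above every unwounded one, and replicate 1 of wounded WT was the lowest of the wounded libraries. The log2 fold change was 6.44 ± 0.48 (SE) in isi1-2 (adjusted p = 4.5e-06) and 6.91 ± 0.49 in WT (adjusted p = 4.17e-06). WRKY40 (AT1G80840) had 48.7, 43 and 50 CPM in wounded isi1-2, against 0.631, 0.273 and 0.37 CPM in unwounded isi1-2, and 18, 63.4 and 53.6 CPM in wounded WT, against 0.855, 0.677 and 0.46 CPM in unwounded WT. Its groups were separate in both genotypes, with log2 fold changes of 6.79 ± 0.63 (adjusted p = 1.91e-05) in isi1-2 and 6.07 ± 0.60 (adjusted p = 3.28e-05) in WT. WRKY60, the third member, averaged 1.92 ± 0.363 CPM in wounded and 1.7 ± 0.301 in unwounded isi1-2, and 2.22 ± 0.689 CPM in wounded and 2.15 ± 0.476 in unwounded WT (SD, n = 3 each). Its wounded and unwounded libraries overlapped, with log2 fold changes of 0.18 ± 0.26 (adjusted p = 0.602) in isi1-2 and 0.05 ± 0.25 (adjusted p = 0.886) in WT.

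WRKY18 took up much of the summed level of the 52 listed members after wounding. The 52 members summed to 894 ± 86.5 CPM in isi1-2 wounded, 494 ± 14.6 in isi1-2 unwounded, 916 ± 224 in WT wounded and 450 ± 34.3 in WT unwounded (SD, n = 3 each). The share of WRKY18 in that sum averaged 36.2% in isi1-2 wounded, 0.758% in isi1-2 unwounded, 41.9% in WT wounded and 0.738% in WT unwounded, and in wounded WT it ranged over libraries between 27.9% and 50.1%. Without WRKY18 the sums were 570 ± 47.1 CPM in isi1-2 wounded and 490 ± 14 in isi1-2 unwounded, and 514 ± 33.8 in WT wounded and 447 ± 33.3 in WT unwounded. On this reduced sum the lowest wounded library had 516 CPM, against 506 CPM in the highest unwounded one, in isi1-2, and 475 CPM, against 476 CPM, in WT.

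**Figure D3:**
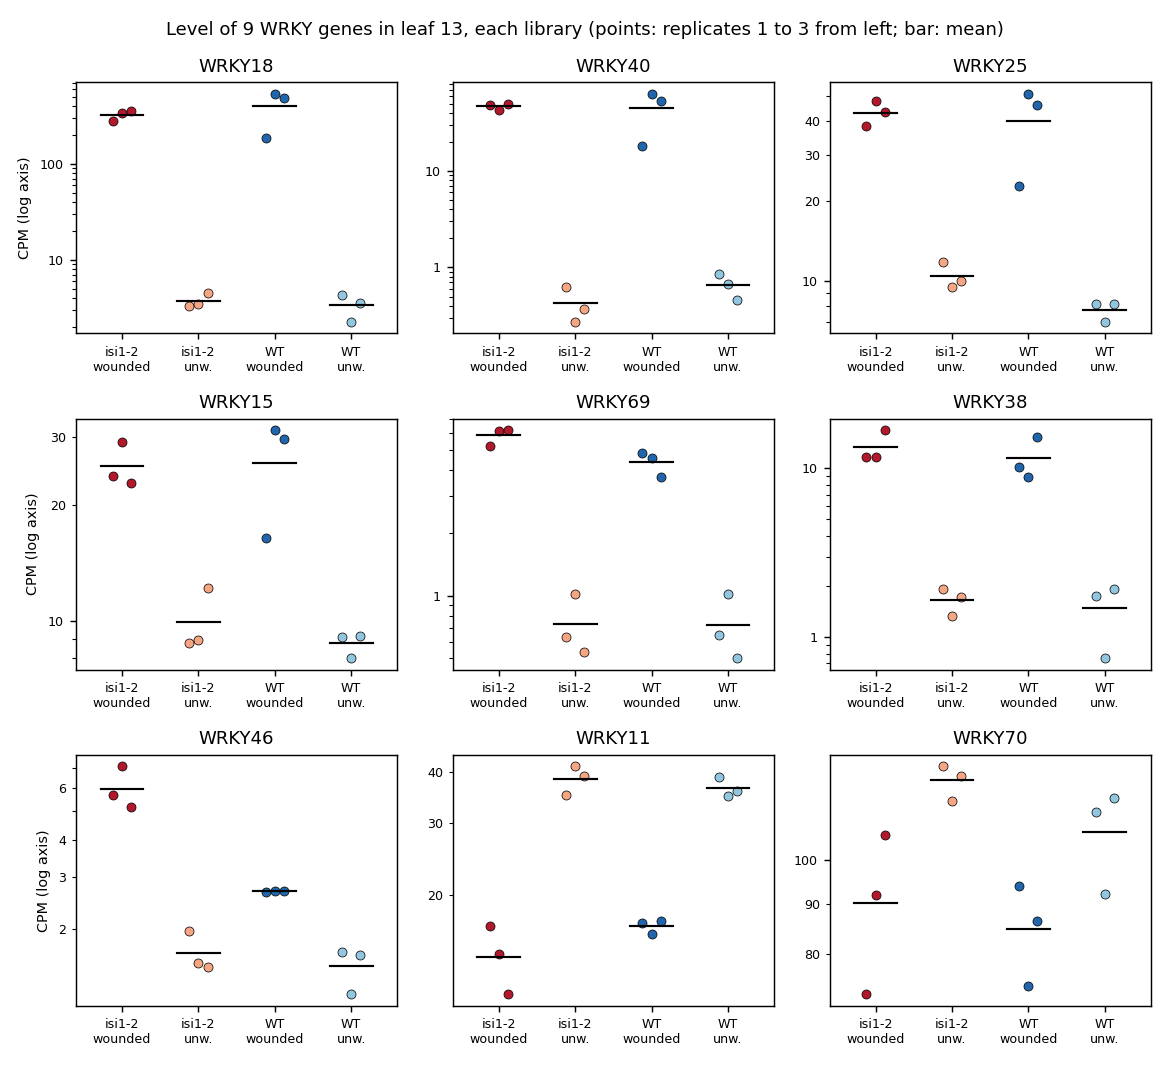
Level of 9 WRKY genes in each of the 12 libraries, in CPM on log axes that differ between panels, with points for replicates 1 to 3 from left to right and a bar for the mean. For WRKY18, WRKY40, WRKY25 and WRKY15 replicate 1 of wounded WT is the lowest wounded library, for WRKY46 the 3 wounded isi1-2 libraries lie above the 3 wounded WT libraries, and for WRKY11 all wounded libraries lie below all unwounded ones.

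In group I the largest increases were those of WRKY26 and WRKY25, which with WRKY33 are known for a shared part in heat tolerance. WRKY25 (AT2G30250) had 38.4, 47.7 and 43.6 CPM in wounded isi1-2, against 11.8, 9.51 and 9.95 CPM in unwounded isi1-2, and 22.8, 50.9 and 46.2 CPM in wounded WT, against 8.14, 7 and 8.16 CPM in unwounded WT. The log2 fold change was 2.05 ± 0.27 in isi1-2 (adjusted p = 0.000116) and 2.37 ± 0.28 in WT (adjusted p = 6.45e-05), with groups that did not overlap. WRKY26 (AT5G07100) had 53, 67 and 47 counts in wounded isi1-2, against 2, 4 and 2 in unwounded isi1-2, and 20, 64 and 30 counts in wounded WT, against 0, 4 and 2 in unwounded WT. It was near the detection floor without wounding, and the ratio of the summed counts, scaled for depth, was 22.7 in isi1-2 (95% counting interval 11.3 to 53.5) and 17 in WT (7.57 to 47.3). The fitted log2 fold change in WT was 3.99 ± 0.58 (adjusted p = 3.41e-05), and without replicate 2 of unwounded WT it was 4.87. WRKY4 (AT1G13960), known for a role in resistance to necrotrophic fungi, had 26.1, 29.9 and 25.2 CPM in wounded isi1-2, against 10.4, 10.4 and 11.9 CPM in unwounded isi1-2, and 20.2, 23.8 and 22.1 CPM in wounded WT, against 12.3, 11 and 10 CPM in unwounded WT. Its groups were separate, with log2 fold changes of 1.31 ± 0.10 (adjusted p = 1.74e-08) in isi1-2 and 0.99 ± 0.10 (adjusted p = 6.74e-07) in WT.

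Other members of group I went the other way or did not pass. WRKY3, which acts with WRKY4 against necrotrophs, fell by 0.70 on the log2 scale (SE 0.10, adjusted p = 3.53e-05) to 30.6 CPM in wounded isi1-2, against 49.8 CPM in unwounded isi1-2. In WT it fell by 0.60 (SE 0.10, adjusted p = 0.000175) to 30 CPM in wounded plants, against 45.4 CPM in unwounded plants. WRKY2 was lower by a log2 fold change of -0.29 ± 0.10 in each genotype (adjusted p = 0.0223 in isi1-2 and 0.0231 in WT). WRKY33, the activator of camalexin synthesis and a substrate of the MAP kinases MPK3 and MPK6, averaged 10.8 ± 1.33 CPM in wounded and 16.2 ± 2.36 in unwounded isi1-2, and 10.4 ± 3.76 CPM in wounded and 13.7 ± 3.35 in unwounded WT (SD, n = 3 each). Its log2 fold changes of -0.59 ± 0.25 (adjusted p = 0.0715) in isi1-2 and -0.39 ± 0.25 (adjusted p = 0.228) in WT did not pass. In isi1-2 the call was made with DESeq2 (adjusted p = 0.0197), in a fit of the 2 groups alone (0.000936), with the replicate block (0.0289), and without replicate 1 of wounded WT (0.015), replicate 2 of wounded WT (0.0353) or replicate 2 of unwounded WT (0.0469).

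In group IIb, of which WRKY6 and WRKY42 are known as repressors of the phosphate exporter gene PHO1, 3 of 5 members were tested. WRKY6 (AT1G62300), the highest of the group per kb, had 5.56, 7.25 and 4.88 CPM in wounded isi1-2, against 3.82, 4.12 and 4.73 CPM in unwounded isi1-2, and 4.99, 5.91 and 5.16 CPM in wounded WT, against 4.48, 5.75 and 4.31 CPM in unwounded WT. The wounded libraries were the higher ones in isi1-2, and the groups overlapped in WT. The log2 fold change was 0.48 ± 0.16 in isi1-2 (adjusted p = 0.0216) and 0.14 ± 0.16 in WT (adjusted p = 0.502). WRKY42 and WRKY47 passed in neither genotype.

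In group IIc, 7 of 11 members were tested and WRKY48, WRKY28 and WRKY8 were higher in both genotypes. WRKY48 (AT5G49520), a stress-induced activator, had 2.33, 2.47 and 1.71 CPM in wounded isi1-2, against 0.297, 0.136 and 0.206 CPM in unwounded isi1-2. It had 0.939, 3.42 and 2.36 CPM in wounded WT, against 0.0814, 0.113 and 0.418 CPM in unwounded WT. No unwounded library reached a wounded one, and the log2 fold change was 3.33 ± 0.55 in isi1-2 (adjusted p = 0.000154) and 3.46 ± 0.55 in WT (adjusted p = 0.000143). Without replicate 3 of unwounded WT, its highest unwounded library, the value in WT was 4.46. WRKY28 (AT4G18170), known as an activator of the salicylic acid synthesis gene ICS1, had 1.16, 1.58 and 0.793 CPM in wounded isi1-2, against 0.148, 0.341 and 0.288 CPM in unwounded isi1-2, and 0.676, 2.16 and 1.18 CPM in wounded WT, against 0.448, 0.263 and 0.377 CPM in unwounded WT. The groups were again separate, with log2 fold changes of 2.16 ± 0.48 (adjusted p = 0.00136) in isi1-2 and 1.89 ± 0.45 (adjusted p = 0.00231) in WT. WRKY23 (AT2G47260), an auxin-responsive factor with the group's highest value per kb in any 1 condition (1.74 CPM per kb in unwounded WT, beside 1.73 for WRKY13), had 1.99, 2.79 and 2.22 CPM in wounded isi1-2, against 2.52, 2.32 and 2.59 CPM in unwounded isi1-2, and 2.78, 3.02 and 2.25 CPM in wounded WT, against 3.09, 3.01 and 3.89 CPM in unwounded WT. Its groups overlapped in both genotypes. WRKY13, known for a role in stem wall formation, was lower, with log2 fold changes of -0.66 ± 0.27 (adjusted p = 0.0479) in isi1-2 and -0.85 ± 0.25 (adjusted p = 0.0121) in WT. Its call in isi1-2 was lost with DESeq2 (0.0655), with no filter on low counts (0.0502) and with the replicate block (0.0545). WRKY8 had log2 fold changes of 0.50 ± 0.19 (adjusted p = 0.0379) in isi1-2 and 0.89 ± 0.19 (adjusted p = 0.00135) in WT. Its call in isi1-2 was lost with DESeq2 (0.0884), with no filter (0.0648), in a fit of the 2 groups alone (0.0554) and with the replicate block (0.0503).

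Group IId, whose proteins bind calmodulin, was the group with the most members that fell. WRKY11 (AT4G31550), a negative regulator of resistance to bacteria, had 16.9, 14.4 and 11.5 CPM in wounded isi1-2, against 35, 41.2 and 39 CPM in unwounded isi1-2, and 17.1, 16.1 and 17.3 CPM in wounded WT, against 38.7, 34.8 and 35.8 CPM in unwounded WT. All wounded libraries lay below all unwounded ones. WRKY11 was the member that fell at least 2-fold in both genotypes, by 1.43 on the log2 scale (SE 0.11, adjusted p = 1.73e-08) in isi1-2 and by 1.11 (SE 0.11, adjusted p = 3.47e-07) in WT. WRKY17, which acts together with WRKY11, had log2 fold changes of -0.71 ± 0.14 (adjusted p = 0.000516) in isi1-2 and -0.92 ± 0.14 (adjusted p = 6.5e-05) in WT. WRKY7 had -0.85 ± 0.17 (adjusted p = 0.000612) in isi1-2 and -0.83 ± 0.18 (adjusted p = 0.000992) in WT. In the opposite direction, WRKY15 (AT2G23320), a factor of osmotic and oxidative stress responses, had 23.7, 29 and 22.8 CPM in wounded isi1-2, against 8.76, 8.93 and 12.2 CPM in unwounded isi1-2, and 16.4, 31.2 and 29.6 CPM in wounded WT, against 9.08, 8.01 and 9.16 CPM in unwounded WT. Its groups were separate, with log2 fold changes of 1.34 ± 0.23 (adjusted p = 0.000575) in isi1-2 and 1.56 ± 0.23 (adjusted p = 0.000247) in WT.

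In group IIe the main response was that of WRKY69 (AT3G58710). It had 5.23, 6.19 and 6.23 CPM in wounded isi1-2, against 0.631, 1.02 and 0.535 CPM in unwounded isi1-2, and 4.84, 4.55 and 3.72 CPM in wounded WT, against 0.651, 1.02 and 0.502 CPM in unwounded WT. The groups were separate in both genotypes, with log2 fold changes of 2.98 ± 0.24 (adjusted p = 3.34e-08) in isi1-2 and 2.57 ± 0.25 (adjusted p = 3.41e-07) in WT. WRKY29 and WRKY22, known as targets of the MAP kinase pathway that the bacterial peptide flg22 turns on, moved less. WRKY29 had log2 fold changes of 0.70 ± 0.26 (adjusted p = 0.0346) in isi1-2 and 0.71 ± 0.25 (adjusted p = 0.0318) in WT, and WRKY22 of 0.59 ± 0.25 (adjusted p = 0.0569) in isi1-2 and 0.70 ± 0.24 (adjusted p = 0.0249) in WT. WRKY27 (AT5G52830) had 6, 3 and 12 counts in wounded isi1-2, against 13, 13 and 10 in unwounded isi1-2, and 9, 4 and 4 counts in wounded WT, against 10, 14 and 12 in unwounded WT. These are few counts: the log2 fold change was -0.65 ± 0.46 (adjusted p = 0.259) in isi1-2 and -1.22 ± 0.48 (adjusted p = 0.0467) in WT, and in WT the call was lost with DESeq2 (0.0933), with no filter (0.0673), in a fit of the 2 groups alone (0.0508) and with the replicate block (0.0526).

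Group III holds most of the family's known links to salicylic acid. WRKY38 (AT5G22570), which with WRKY62 restrains basal defence, had 11.7, 11.7 and 16.9 CPM in wounded isi1-2, against 1.93, 1.33 and 1.73 CPM in unwounded isi1-2, and 10.2, 8.86 and 15.3 CPM in wounded WT, against 1.75, 0.752 and 1.92 CPM in unwounded WT. The groups did not overlap, and the log2 fold change was 3.02 ± 0.30 in isi1-2 (adjusted p = 5.84e-06) and 2.97 ± 0.32 in WT (adjusted p = 1.14e-05). WRKY62 (AT5G01900) had 22, 36 and 27 counts in wounded isi1-2, against 2, 0 and 1 in unwounded isi1-2, and 11, 10 and 18 counts in wounded WT, against 1, 0 and 1 in unwounded WT. It was at the floor without wounding, so the ratio of summed counts, 30.9 in isi1-2 and 17.4 in WT, has wide 95% counting intervals of 10.2 to 153 and 4.51 to 149. The fitted log2 fold change in isi1-2, 4.78 ± 0.59 (adjusted p = 4.58e-06), was 5.62 without replicate 1 and 4.19 without replicate 2 of unwounded isi1-2. WRKY53 (AT4G23810), a regulator of leaf senescence, had 3.11, 3.6 and 3.57 CPM in wounded isi1-2, against 1.45, 1.91 and 1.73 CPM in unwounded isi1-2, and 1.76, 3.02 and 4.01 CPM in wounded WT, against 1.47, 0.752 and 1 CPM in unwounded WT. Wounded libraries were the higher ones in both genotypes, with log2 fold changes of 1.01 ± 0.27 (adjusted p = 0.00451) in isi1-2 and 1.45 ± 0.29 (adjusted p = 0.000573) in WT.

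The most abundant pair of group III in unwounded leaves moved little. WRKY70 (AT3G56400) had 72.6, 91.9 and 106 CPM in wounded isi1-2, against 125, 115 and 122 CPM in unwounded isi1-2, and 93.9, 74 and 86.4 CPM in wounded WT, against 112, 92.1 and 116 CPM in unwounded WT. The groups were separate in isi1-2 and overlapped in WT. The log2 fold change was -0.42 ± 0.13 (adjusted p = 0.0188) in isi1-2 and -0.33 ± 0.13 (adjusted p = 0.0583) in WT. WRKY54 averaged 85.5 ± 22.3 CPM in wounded and 80.5 ± 6.23 in unwounded isi1-2, and 61.8 ± 11.2 CPM in wounded and 59.5 ± 9.6 in unwounded WT (SD, n = 3 each), with adjusted p-values of 0.746 in isi1-2 and 0.852 in WT.

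Calls near the threshold depended on single libraries or on the fit. In WT, WRKY29 lost its call in a fit of the 2 groups alone (adjusted p = 0.0553) and WRKY32 with DESeq2 (0.059). In isi1-2 the call of WRKY57 was lost without replicate 2 of wounded isi1-2 (adjusted p = 0.0688), and that of WRKY70 without replicate 1 of unwounded isi1-2 (0.0591). The call of WRKY6 in isi1-2 was lost without replicate 1 or 2 of unwounded isi1-2 or replicate 2 of wounded isi1-2 (0.0796, 0.0582 and 0.145). Losing calls in isi1-2 were also WRKY2 without replicate 2 or 3 of unwounded or replicate 3 of wounded isi1-2, WRKY21 without replicate 2 or 3 of either isi1-2 group, WRKY8 without the same 4 libraries, and WRKY29 without any replicate of unwounded isi1-2 or replicate 2 or 3 of wounded isi1-2, with adjusted p-values of 0.0547 to 0.181. WRKY13 lost it in isi1-2 without any of 7 libraries, all 3 of unwounded isi1-2, replicates 2 and 3 of wounded isi1-2 and replicate 3 of each WT group (0.0519 to 0.194). In WT, WRKY2 lost its call without replicate 1 or 2 of either WT group (0.0512 to 0.0774), WRKY13 without replicate 2 of either (0.0772 and 0.0645), and WRKY22 without replicate 1 or 3 of unwounded or replicate 2 of wounded WT (0.0532 to 0.184). WRKY29 lost it in WT without any replicate of unwounded or replicate 2 or 3 of wounded WT (0.0531 to 0.14). WRKY32 lost it in WT without replicate 2 or 3 of either WT group, replicate 3 of unwounded isi1-2 or replicate 1 or 2 of wounded isi1-2 (0.0502 to 0.175). WRKY27 lost it in WT without 9 of the 12 libraries, all but replicates 2 and 3 of wounded isi1-2 and replicate 1 of wounded WT (0.0558 to 0.161). Calls were gained by WRKY22 in isi1-2 without replicate 3 of wounded isi1-2 or replicate 1 or 2 of wounded WT (0.0236 to 0.0298). WRKY70 gained one in WT without replicate 1 or 3 of wounded isi1-2, replicate 2 of unwounded WT or replicate 1 of wounded WT (0.0144 to 0.0397). Gains were followed only for members with an unadjusted p under 0.05 in the main fit, and those of WRKY33 are given above. Without replicate 1 of wounded WT 27 members were called in WT, against 24 with all libraries, so members outside that set also gained calls. The 11 members that rose at least 2-fold in both genotypes, and WRKY3, WRKY7, WRKY11, WRKY17, WRKY4 and WRKY46, kept their calls in both genotypes without any 1 library.

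Replicate 1 of wounded WT was the lowest of its group for 8 of the 11 members that rose at least 2-fold in WT (72.7%), and for 952 of the 1460 genes of that kind in all (65.2%). Its level relative to the mean of the other 2 replicates had a median of 0.47 over the 11 members and 0.826 over the 1460 genes. The exceptions were WRKY69, WRKY38 and WRKY62, for which the ratio was 1.17, 0.842 and 0.83. Without this library 27 members and 8848 of 18858 genes were called for wounding in WT, against 24 members and 8764 of 18698 genes with all libraries.

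Between genotypes few members were called, as were few genes in all. In unwounded plants 0 of 39 members passed edgeR's test (0.128% of all genes did), and 2 had an unadjusted p under 0.05, WRKY53 with a log2 fold change of isi1-2 over WT of 0.66 ± 0.31 (adjusted p = 0.542) and WRKY23 with -0.43 ± 0.18 (adjusted p = 0.493). These are 5.13% of the members, against 9.13% of all genes at that unadjusted p. DESeq2 also called 0. In wounded plants 9 members had an unadjusted p under 0.05 (23.1%, against 16.6% of all genes). Of the 39, 1 passed edgeR's test, WRKY46, a share near the 2.39% of all genes. The other 38 members had log2 fold changes between -0.31 and 1.29 with SE between 0.06 and 0.53, so that for members with few counts a 2-fold difference lies within the error.

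WRKY46 (AT2G46400, chromosome 2, 19043411 to 19044955 on the minus strand in TAIR10.1) is a group III factor known from drought, brassinosteroid and basal defence responses. It had 5.65, 7.09 and 5.16 CPM in wounded isi1-2, against 2.67, 2.69 and 2.69 CPM in wounded WT. In unwounded plants it had 1.97, 1.53 and 1.48 CPM in isi1-2, against 1.67, 1.2 and 1.63 CPM in WT. All wounded isi1-2 libraries were above all wounded WT libraries, while the unwounded genotypes overlapped. The log2 fold change of isi1-2 over WT was 1.15 ± 0.17 in wounded plants (adjusted p = 0.00272) and 0.15 ± 0.21 in unwounded plants (adjusted p = 0.88). The response to wounding was 1.84 ± 0.18 in isi1-2 (adjusted p = 3.45e-07) and 0.84 ± 0.19 in WT (adjusted p = 0.00206). The difference between these 2 responses, 1.00 ± 0.27, did not pass over all genes (adjusted p = 0.178). Without replicate 1 of wounded WT or any other single library the genotype difference in wounded plants stayed between 1.01 and 1.25, with an adjusted p of at most 0.0229. Replicate 1 of wounded WT had the same level as the other 2 libraries for WRKY46, unlike WRKY18.

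WRKY62, a relative of WRKY46 in group III, had 85 summed counts in wounded isi1-2, against 39 in wounded WT. The fitted log2 fold change was 1.29 ± 0.37, and its adjusted p of 0.0789 did not pass. WRKY18 had a log2 fold change of isi1-2 over WT of -0.31 ± 0.35 in wounded plants (adjusted p = 0.73). When replicate 1 of wounded WT was left out this was -0.65 ± 0.14 with an adjusted p of 0.0294, and 2 members, WRKY46 and WRKY18, were then called between wounded genotypes.

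**Figure D4:**
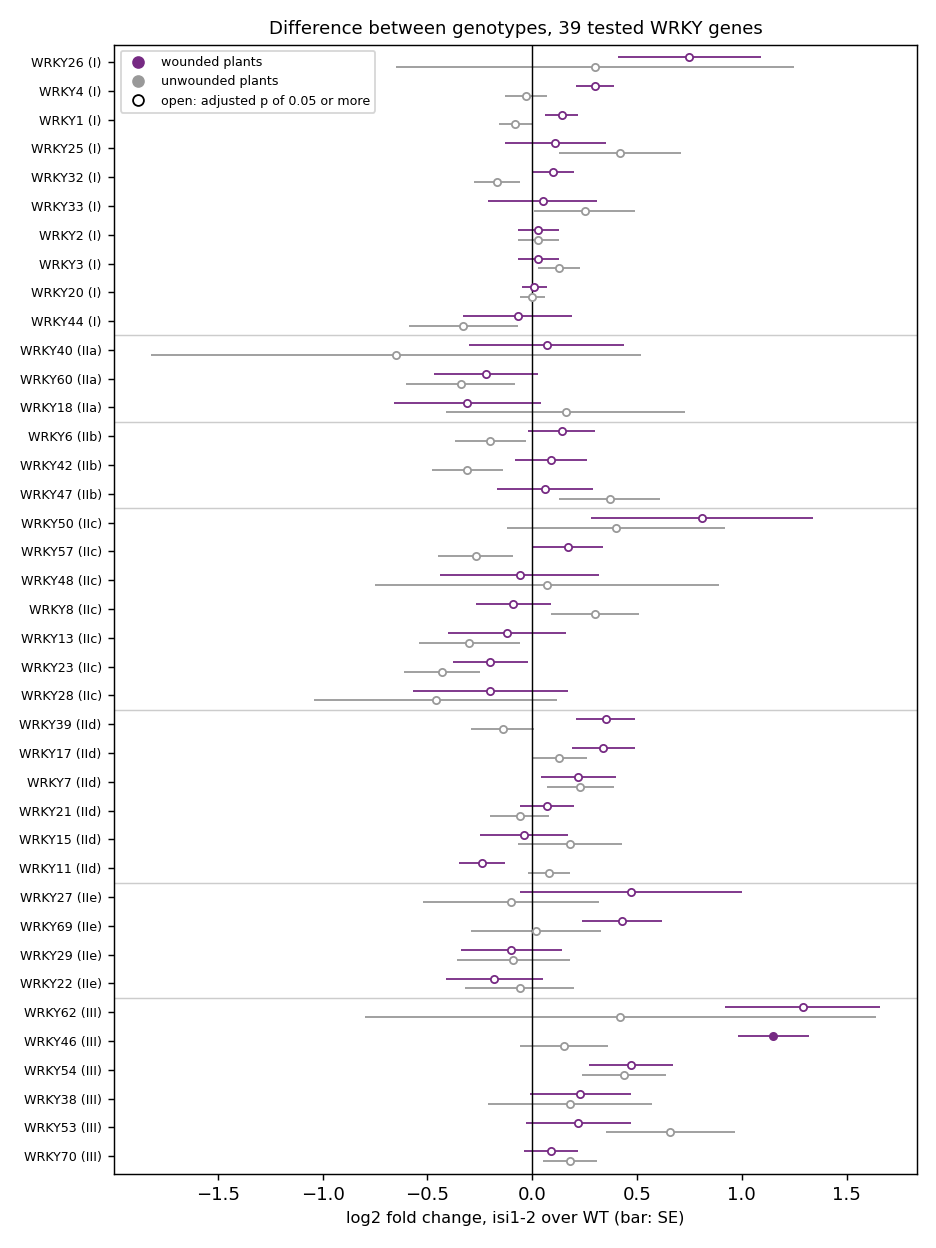
Log2 fold change of isi1-2 over WT for the 39 tested WRKY genes, in wounded plants above unwounded plants for each gene, with bars for SE, filled points for an adjusted p under 0.05 and lines between structural groups. The only filled point is WRKY46 in wounded plants at 1.15, and WRKY62 at 1.29 has a wider bar.

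The difference between the responses of the genotypes was tested directly. None of 39 members passed edgeR's test (0.0321% of all genes did). An unadjusted p under 0.05 was found for 4, WRKY46, WRKY4, WRKY39 and WRKY11 (10.3%, against 10.5% of all genes). DESeq2 also called 0 members, and 153 of the 11965 genes to which it gave an adjusted p. It gave none to WRKY46, so its result does not bear on that member. Members with fewer counts than WRKY46 may also have been given none, so the 0 is not a result for all 39. Called higher in isi1-2 and uncalled in WT were WRKY1, WRKY6, WRKY57, WRKY21 and WRKY39. Their log2 fold changes were 0.32 to 0.68 in isi1-2 and 0.10 to 0.23 in WT, and the adjusted p of the difference was 0.421 to 0.876. WRKY70 was called lower in isi1-2 and missed the threshold in WT, and WRKY22 (higher) and WRKY27 (lower) were called in WT and missed it in isi1-2, with adjusted p-values of the difference of 0.923, 0.951 and 0.826. WRKY70 passed in WT too with DESeq2 (0.0306), in a fit of the 2 groups alone (0.0381) and with the replicate block (0.0467), and WRKY22 passed in isi1-2 too in the last 2 of these (0.0304 and 0.0338).

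Several members share bases with a gene on the opposite strand, and although the library kit marks strand, the strand setting of the counting is not given in the sources used here. The 10 such members are WRKY1, WRKY2, WRKY4, WRKY33, WRKY40, WRKY61, WRKY29, WRKY69, WRKY41 and WRKY53. The partner of WRKY40, AT1G80850, had 221 to 289 counts in wounded and 231 to 386 in unwounded isi1-2, and 248 to 346 in wounded and 255 to 293 in unwounded WT. The main partner of WRKY69, AT3G58720, had 181 to 208 counts in wounded and 189 to 250 in unwounded isi1-2, and 169 to 244 in wounded and 177 to 226 in unwounded WT. The partner of WRKY53, AT4G23800, had 274 to 302 counts in wounded and 314 to 441 in unwounded isi1-2, and 322 to 387 in wounded and 377 to 459 in unwounded WT, and that of WRKY4, AT1G13970, had at most 46 counts in any library. None of these 4 partners showed the rise of its WRKY neighbour. No 100-base stretch of a member's exons occurs a second time, letter for letter, in the genome.

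Over the 250 bases before the start, a complete W-box (TTGACC or TTGACT, either strand) was present in 6 of the 11 members that rose at least 2-fold in both genotypes (54.5%), in 6 of the 28 other tested members (21.4%), in 6 of the 13 members not tested (46.2%), in 18 of all 52 members (34.6%) and in 28.4% of 27443 protein-coding nuclear genes. The 6 were WRKY15, WRKY25, WRKY26, WRKY28, WRKY53 and WRKY62. A pair of complete W-boxes was not particular to induced members. Besides WRKY15, WRKY53 and WRKY62, 2 were present in WRKY29 and WRKY32, which rose less than 2-fold, in WRKY17, which fell, and in WRKY33, uncalled. The untested WRKY41 and WRKY45 had 2, and the untested WRKY30 had 3. The core TTGAC, which is contained in the complete W-box, was present in 72.7% of the 11 members, 42.9% of the 28 others, 53.8% of the 13 not tested and 44.9% of all genes. The G-box CACGTG, which reads the same on both strands and is bound among others by the jasmonate regulator MYC2, was present in 1 of the 11 members (9.09%), WRKY15, in 2 of the 28 others (7.14%), in 3 of the 13 not tested (23.1%) and in 6.49% of all genes. Over 1000 bases the complete W-box was present in 90.9% of the 11, 78.6% of the 28 and 76.9% of the 13 not tested. It was present in 80.8% of all 52 members and 67.3% of all genes. The G-box was present in 18.2%, 35.7%, 38.5%, 32.7% and 14.8% in the same order. WRKY18, with the largest rise in WT, was among the members with no core in the shorter window. Over 1000 bases WRKY18 and WRKY60 had 3 complete W-boxes each, and WRKY40 had 2. These matches describe letters in a window.

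WRKY proteins act with VQ proteins, short partners that bind the WRKY domain, and 9 of 12 listed VQ genes were tested. In isi1-2 3 were higher (33.3%, against 25.1% of all genes) and 3 lower (33.3%, against 25.7%), and in WT 2 were higher (22.2%, against 23.9%) and 3 lower (33.3%, against 23%). SIB1, VQ33 and VQ4 in isi1-2 and VQ9 in WT each lost the call without at least 1 library, with adjusted p-values of 0.0503 to 0.165. VQ9 in WT also lost it with DESeq2 (0.0718), with no filter (0.0584), in a fit of the 2 groups alone (0.0852) and with the replicate block (0.0506). SIB1 in isi1-2 also lost it with no filter (0.0658). JAV1, a repressor of jasmonate defence, averaged 9.17 CPM in wounded and 0.176 CPM in unwounded isi1-2, and 7.62 CPM in wounded and 0.183 CPM in unwounded WT. Its log2 fold change was 5.68 ± 0.32 (adjusted p = 5.89e-10) in isi1-2 and 5.32 ± 0.33 (adjusted p = 2.17e-09) in WT, and without replicate 1 of unwounded isi1-2 the value in isi1-2 was 6.29. VQ12, known to restrain resistance to Botrytis, had 2305 summed counts in wounded and 4 in unwounded isi1-2, a ratio of 628 after scaling (95% counting interval 245 to 2310). In WT it had 2371 in wounded and 3 in unwounded plants, a ratio of 707 (242 to 3430), and its fitted log2 fold change in WT was 9.28, or 10.16 without replicate 3 of unwounded WT. SIB2, a partner of WRKY33, averaged 2.94 CPM in wounded and 14.2 CPM in unwounded isi1-2, and 3.97 CPM in wounded and 14.4 CPM in unwounded WT. It fell by 2.26 on the log2 scale (SE 0.22, adjusted p = 1.31e-06) in isi1-2 and by 1.87 (SE 0.21, adjusted p = 6.34e-06) in WT.

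Of the 9 listed genes of MAP kinase cascades, which phosphorylate some WRKY proteins, all were tested. In isi1-2 6 were higher (66.7%, against 25.1% of all genes) and 1 lower (11.1%, against 25.7%), and in WT 7 were higher (77.8%, against 23.9%) and 1 lower (11.1%, against 23%). MKK5 in isi1-2 and MPK4 in WT each lost the call without at least 1 library (adjusted p = 0.0537 to 0.107). MEKK1 in isi1-2 lost it when any 1 isi1-2 or unwounded WT library or replicate 3 of wounded WT was left out (0.0561 to 0.118). Its call was also lost with DESeq2 (0.0586). MKK9, a kinase upstream of MPK3 and MPK6, was the gene of the list that passed with at least 2-fold, at 16 CPM in wounded and 3.85 CPM in unwounded isi1-2 and 17.4 CPM in wounded and 3.75 CPM in unwounded WT. Its log2 fold change was 2.06 ± 0.16 (adjusted p = 3.39e-08) in isi1-2 and 2.22 ± 0.16 (adjusted p = 1.98e-08) in WT. MPK3 was the gene that fell, with log2 fold changes of -0.79 ± 0.09 (adjusted p = 3.68e-06) in isi1-2 and -0.45 ± 0.09 (adjusted p = 0.000929) in WT.

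Among 13 genes described as targets of WRKY factors, 7 were tested, and 2 were higher (28.6%) and 2 lower (28.6%) in each genotype, shares near those of all genes (25.1% and 25.7% in isi1-2, 23.9% and 23% in WT). NPR1, the salicylic acid receptor and coactivator, was higher in both, with log2 fold changes of 0.40 ± 0.08 (adjusted p = 0.000649) in isi1-2 and 0.44 ± 0.08 (adjusted p = 0.000286) in WT. ICS1 was lower in both, with -0.75 ± 0.13 (adjusted p = 0.000209) in isi1-2 and -0.68 ± 0.13 (adjusted p = 0.000411) in WT, as was PHO1, with -0.38 ± 0.12 (adjusted p = 0.0162) in isi1-2 and -0.52 ± 0.12 (adjusted p = 0.00191) in WT. The call of PHO1 in isi1-2 was lost without replicate 2 of unwounded or replicate 3 of wounded isi1-2 (adjusted p = 0.105 and 0.0742). The ethylene synthesis gene ACS2 had 22, 21 and 16 counts in wounded isi1-2, against 5, 9 and 2 in unwounded isi1-2, and 4, 21 and 14 counts in wounded WT, against 3, 7 and 6 in unwounded WT. It was higher in isi1-2, with 1.99 ± 0.51 (adjusted p = 0.00382), and in WT it did not pass (adjusted p = 0.113) except without replicate 1 of wounded WT (0.0167). CYP71B15, the last enzyme of camalexin synthesis, had 11, 10 and 8 counts in wounded isi1-2, against 9, 0 and 7 in unwounded isi1-2, and 5, 13 and 45 counts in wounded WT, against 2, 2 and 2 in unwounded WT. Its log2 fold change was 0.96 ± 0.90 (adjusted p = 0.403) in isi1-2 and 3.16 ± 0.97 (adjusted p = 0.0164) in WT. The call in WT rested on replicate 3 of wounded WT, without which the value was 1.92 (adjusted p = 0.0921), and it was also lost without replicate 2 of unwounded WT (0.0561).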

How the data were processed

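Each sample has 1 deposited table of counts, whole-number reads per gene that the authors did not normalize, from poly-A libraries that mark strand, sequenced single-end per the labels' protocols. Per the submitters' processing notes, cutadapt 1.8, STAR 2.5.3a, HTSeq 0.9.1 and the build TAIR10 were used; their settings, including strand in counting, are not given in the sources used here. The last 5 lines of each table, which name no gene, were left out of library sizes: reads without a feature and with several alignments equalled 0.652% to 0.95% and 4.186% to 4.458% of the library.

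Counts were tested with edgeR 4.0.16 in R 4.3.3: filterByExpr (minimum count 10, minimum total 15), TMM scaling, and a robust quasi-likelihood fit of all 12 samples with 1 coefficient per group. Benjamini-Hochberg adjustment ran over 18698 genes, and a call is an adjusted p under 0.05. SE was taken as the size of the log2 fold change over the root of the F statistic. The procedure was tested on simulated data. P-values measure the spread between pools of 2 plants, which the labels call biological replicates. A floor of 3 counts (0.09953 to 0.1255 CPM) was used, and counting intervals are exact binomial at 95% and cover counting error only.

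The members, the lists of VQ, MAP kinase and target genes and the rule for naming genes were chosen with earlier results of these data known. Values of every sample are given for members that changed at least 2-fold with a call in either genotype, members called between genotypes and the highest of each structural group per kb; of other lists, the genes called with at least 2-fold, with further examples chosen after their values were seen. Sequences, positions and exon lengths come from RefSeq on TAIR10.1; the tables hold no coordinates. Alternatives were other size factors, DESeq2 1.42.0, no filter, only the 2 groups compared, a replicate block and leaving out each library; for the VQ, MAP kinase and target genes these were added after seeing the data.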

Additional observations from a re-analysis of the deposited data

How the results depend on the processing

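With size factors of the DESeq2 type, DESeq2, no filter on low counts, a fit of only the 2 groups compared and the replicate block, 28 or 29 members were called for wounding in isi1-2 and 22 to 24 in WT, 1 between genotypes in wounded plants (WRKY46), 0 between genotypes in unwounded plants and, where run, 0 for the difference of responses (which needs all 4 groups). DESeq2 gave WRKY46 no adjusted p for the difference of responses, and may have given none to members with fewer counts. Those settings called 9218 to 9799 genes in all for wounding in isi1-2 and 8127 to 9079 in WT, of 18338 to 24126 tested. With each library left out in turn the counts of members were 22 to 30 in isi1-2, 19 to 27 in WT, 1 to 2 in wounded plants and 0 in the other 2 comparisons. All genes called then numbered 8305 to 9884 in isi1-2, 7536 to 8848 in WT and 104 to 940 in wounded plants, of 18842 to 18894 tested. The 19 and the 27 in WT came with the fewest and the most genes called. The value 2 came without replicate 1 of wounded WT, when WRKY18 joined WRKY46, and 940 genes were then called over the genome, against 446 with all libraries; the cause was not tested. Single members were followed only where the main fit gave an unadjusted p under 0.05 for that comparison. WRKY46 was added in every comparison, and WRKY18 between wounded genotypes and for the difference of responses. Of these values, with a library left out 807 stayed on their side of the threshold, 58 lost and 11 gained a call. With the other alternatives 336 stayed, 13 lost and 8 gained, and none of these values changed sign. Calls gained or signs changed by other members are not in these numbers. Pairing by replicate number is not given by the design and was not assumed in the main fit. Deviations of same-numbered samples correlated between -0.03 and 0.18 over 18 pairs, 5 of them over 0.1. The own number was the highest of the 3 in 24 of 36 pairings, a hint of pairing from the data. The replicate block gave 28 members in isi1-2, 24 in WT, 0 in unwounded and 1 in wounded plants between genotypes, and 0 for the difference of responses. The counts match the main fit but not all members do. In isi1-2 WRKY8 and WRKY13 left and WRKY22 and WRKY33 joined, and in WT WRKY27 left and WRKY70 joined. Over all genes the block called 703 between wounded genotypes, against 446 in the main fit. It called 66 between unwounded genotypes, against 24, and 75 for the difference of responses, against 6. Low counts limit what can be said of the 13 untested members and of others such as WRKY27 and WRKY62. Whether more depth would have detected the untested members was not tested.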
